A study of Mus musculus with 4 samples.

Results

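The 5 genes described here encode the mouse receptors for the Fc part of IgG and their signalling chain: Fcgr1, Fcgr3 and Fcgr4, which bind antibody and activate the cell, Fcgr2b, which binds antibody and inhibits it, and Fcer1g, the shared chain of the activating receptors. They were taken by symbol from the 32372 gene features of the count matrices, and each of the 5 was found. Their UMI counts (unique molecular identifiers, each tagging a captured transcript) were read in brain myeloid cells of mice, gated as CD11b+/CD45+ from the left hemisphere, in 4 libraries of 10x Genomics 3′ v3.1 chemistry. Of these, 2 libraries were APP/PS1:miR-155 cKO, in which the microRNA miR-155 was deleted in microglia per the titles, and 2 were Control mice carrying APP/PS1. All mice were labelled female and 4 months old, and both groups carry APP/PS1, transgenes that make amyloid as a model of Alzheimer's disease, so there is no library of mice without amyloid. The Cre driver, the deleted bases and the number of mice per library are not given in the sources used here. A UMI counts a transcript at its 3′ end, so levels in CPM (the gene's share of all UMIs of the same cells, on the usual scale) were compared between genes without a correction for length.

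IgG-coated material, such as amyloid bound by antibody, is taken up by macrophages and microglia through these receptors. The activating receptors signal through Fcer1g, whose immunoreceptor tyrosine-based activation motif recruits the kinase Syk after phosphorylation by Src family kinases such as Lyn. Fcgr2b carries an inhibitory motif of its own and recruits the phosphatase SHIP-1, the product of Inpp5d. Fcgr1 has the highest affinity for IgG, and Fcgr3 and Fcgr4 bind immune complexes. Fcgr1 is a known gene of the interferon response. A pair of microglial programmes was used as axes: MGnD, the neurodegenerative or disease-associated phenotype around plaques, with genes such as Clec7a and Lpl, and the interferon response, with genes such as Isg15 and Ifit3.

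Several properties of the libraries touch every result. Total UMIs ranged from 33130800 to 47574406 per library, and 13940 barcodes reached 1000 UMIs and 500 genes with no more than 10% of UMIs from mitochondrial genes, and had median depths of 6158 to 7236 UMIs. Of the cells, 12612 lay in clusters of sufficient depth with no marker of another class among their 10 leading genes and are called microglia-like, 52 were monocyte-like and 32 resembled border-associated macrophages (BAM-like). A further 1102 cells of low depth were left unnamed. So were 142 cells of clusters led by MHC class II genes that had Ccl5, from the T and NK cell markers, among their 10 leading genes. These 142 were 52 and 52 in the cKO libraries and 7 and 31 in the Control libraries. Other clusters led by H2-Aa and Cd74, of 46 and 32 cells, had no such marker and are among the microglia-like cells. All 12 microglia markers were detected in every cluster, those of the other classes included. Cell barcodes of different libraries coincided in 14 cases. By file name, cKO replicate 2 is the odd library in its run code, which the other 3 share. Xist, transcribed from the inactive X chromosome of females, was at 1875 and 1780 CPM in cKO replicates 1 and 2, and at 0.403 and 1706 CPM in Control replicates 1 and 2. The library labelled Control replicate 1 therefore goes against its label of female, and the members' genotype and state estimates, detection differences and balances are also given without it. Interactions, gradients, cell classes, pathway counts, co-detection and likeness include it. Mir155hg, the host transcript of miR-155, had 1 and 1 UMIs in the cKO libraries and 7 and 11 UMIs in the Control libraries. MGnD genes were summed at 1407 and 879 CPM in cKO and at 1822 and 1815 CPM in Control microglia-like cells, and 8 heat-shock genes at 2224 and 3103 CPM in cKO and at 2052 and 1767 CPM in Control. The 12 interferon genes were at 420 and 475 CPM in cKO and at 338 and 339 CPM in Control. A list of 12 genes induced chiefly by interferon-gamma was at 249 and 317 CPM in cKO and at 189 and 183 CPM in Control. Their part in the results was not tested, apart from the alternatives named beside each result.

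In the mouse genome (GRCm38, GENCODE M21) the members lie at 2 places. Fcgr2b (chr1:170958617-170976547, minus strand), Fcgr4 (chr1:171018920-171029761, plus strand), Fcgr3 (chr1:171051174-171064935, minus strand) and Fcer1g (chr1:171229572-171234365, minus strand) are neighbours on chromosome 1 and span 276 kb together. Fcgr1 (chr3:96282909-96293969, minus strand) is alone on chromosome 3. Fcgr3 and Fcgr2b share an exact run of 129 bases, which lies 906 and 3014 bases from their 3′ ends, and no other pair of members shares more than 14 bases. How reads within that run were assigned was not tested. Fcgr2b overlaps an antisense gene (Gm38204), and Fcgr3 and Fcgr4 overlap a microRNA and a small nuclear RNA. The 250 bases before the transcription start of the members were read from the RefSeq promoter table (GRCm38.p6) because Fcgr1 and Fcgr4 were the members that moved with the interferon state. Capitals mark motifs found by exact match on both strands: TTCNNNGAA, the letters of the gamma-activated sequence, in Fcgr1, and that of the interferon-stimulated response element (GAAA, any 2 bases, then GAAA again), and GAGGAAGT of the PU.1 site (here as its reverse complement ACTTCCTC), in Fcgr4. None of these letters overlap.
Fcgr1: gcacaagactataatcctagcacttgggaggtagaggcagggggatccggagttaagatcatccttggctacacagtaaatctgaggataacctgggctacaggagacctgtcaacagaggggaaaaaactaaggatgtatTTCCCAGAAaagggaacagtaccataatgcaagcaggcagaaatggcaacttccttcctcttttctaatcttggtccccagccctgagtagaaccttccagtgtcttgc
Fcgr4: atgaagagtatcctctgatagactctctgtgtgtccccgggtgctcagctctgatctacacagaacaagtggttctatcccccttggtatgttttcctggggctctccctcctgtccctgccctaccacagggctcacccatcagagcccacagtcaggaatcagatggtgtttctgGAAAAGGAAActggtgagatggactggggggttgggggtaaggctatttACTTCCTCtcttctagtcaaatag
The Fcgr1 window is chr3:96293970-96294219 on the minus strand and the Fcgr4 window chr1:171018676-171018925 on the plus strand. In the promoter windows of all genes, TTCNNNGAA occurs in 7.02%, the response element pattern in 2.98% and GAGGAAGT in 2.44%. The windows of Fcgr3, Fcgr2b and Fcer1g hold none of the 3 letter patterns. Those of Fcgr3 (chr1:171059404-171059653 and chr1:171059395-171059644) and Fcgr2b (chr1:170976072-170976321) follow RefSeq starts and lie inside the GENCODE spans given above. The bases before the GENCODE starts of these genes were not searched.

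The deleted microRNA is shown because the members' 3′ ends were searched for its seed. Capitals mark bases 2 to 8 (RefSeq, chr16:84714143-84714165, plus strand).
mmu-miR-155-5p: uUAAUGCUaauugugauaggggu
The reverse complement of that seed, AGCATTA, occurs in the longest annotated 3′ UTR of 0 of the 5 members, against 1146 of 11776 tested genes (9.73%).

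In microglia-like cells the signalling chain was the most abundant member and the activating receptors outnumbered the inhibitory one. In unscaled CPM, Fcer1g reached 2305 in cKO replicate 1, 2023 in cKO replicate 2, 2326 in Control replicate 1 and 2316 in Control replicate 2. Fcgr3, an activating receptor of low affinity, followed at 913 and 887 CPM in cKO and 852 and 771 CPM in Control. Fcgr1 was at 391 and 385 CPM in cKO and 361 and 360.0 CPM in Control, and Fcgr2b at 263 and 262 CPM in cKO and 234 and 209 CPM in Control. Fcgr4 was the rarest at 21.1 and 20.7 CPM in cKO and 14.5 and 19.8 CPM in Control. The order Fcer1g, Fcgr3, Fcgr1, Fcgr2b, Fcgr4 held in each of the 4 libraries, and each gap between neighbours was larger than the spread over the libraries. Of the UMIs of the 4 ligand-binding receptors, Fcgr3 took 57.5% and 57.0% in the cKO libraries and 58.3% and 56.7% in the Control libraries. Fcgr4 took 1.33% and 1.33% in cKO and 0.990% and 1.46% in Control.

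To compare shares of cells at equal depth, each cell was thinned to 2000 UMIs, which left out 71 of 6090 cKO cells and 85 of 6522 Control cells. Fcgr3 was then detected in 80.4% and 81.1% of cKO and 78.9% and 77.1% of Control microglia-like cells, and Fcgr2b in 38.3% and 38.9% of cKO and 34.8% and 32.6% of Control cells. Fcgr1 was detected in 49.8% to 52.6% of cells, Fcgr4 in 2.49% to 4.00% and Fcer1g in 97.4% to 98.0%. No class in this sort is known to lack the members, so the free RNA of near-empty barcodes (at most 100 UMIs) was used as the background. If all 2000 UMIs of a cell were free RNA, Fcgr1 would be detected in 38.2% to 44.3%, Fcgr3 in 61.2% to 68.8% and Fcgr2b in 26.6% to 33.1% of cells. The share of free RNA in a cell was not estimated, so these values are not the part of detection that free RNA gave. The shares in cells lay above that level for each member in every library, by 5.92 to 13.8 percentage points for Fcgr1, 11.6 to 19.9 for Fcgr3, 5.12 to 6.80 for Fcgr2b and 0.407 to 1.66 for Fcgr4. Unthinned, Fcgr1 was detected in 87.8% and 90.0% of cKO cells and 86.5% and 89.0% of Control cells.

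None of the 5 members differed between miR-155 cKO and Control past the threshold. In edgeR's quasi-likelihood test on UMIs summed per library over microglia-like cells, 4 of 13444 tested genes passed an adjusted p of 0.05 (0.0298%; 1066 genes were under 0.05 unadjusted, and DESeq2 called 16), and no member was among them. The 4 were Cdkn1a, Esr1 and Iigp1, higher in cKO, and Hist1h2ac, lower, named here after their values were seen. Values below are CPM scaled by TMM factors (trimmed mean of M-values, which aligns the bulk of genes between libraries). Nothing in the labels says that the libraries came from separate animals beyond calling them biological replicates. The p-values refer to these libraries only, with part of the dispersion drawn from other genes. The plot of levels by library shows every value.

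**Figure D1:**
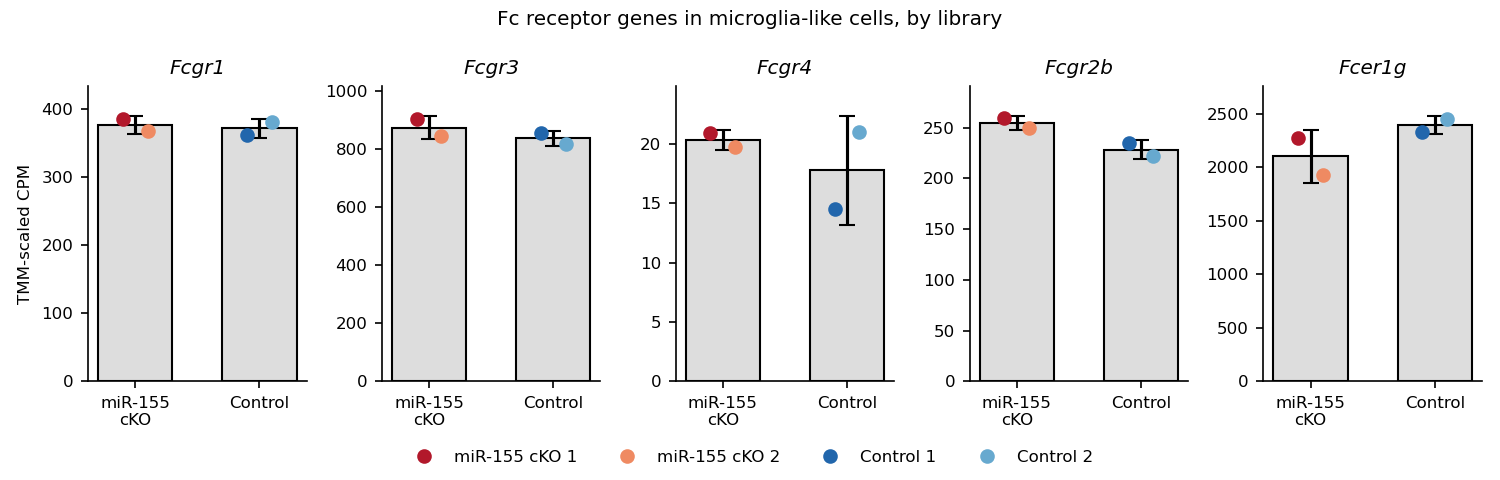
TMM-scaled CPM of each member (linear axis from 0) in microglia-like cells, miR-155 cKO left of Control. Points are libraries, bars are group means and whiskers are ± SD (n = 2 each). The groups overlap for Fcgr1, Fcgr3 and Fcgr4 and do not overlap for Fcgr2b and Fcer1g.

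Among the activating receptors, Fcgr1 had 386 and 367 CPM in cKO replicates and 362 and 382 CPM in Control replicates, and the groups overlapped. The log2 fold change of Fcgr1, cKO over Control, was 0.02 (SE 0.09, edgeR adjusted p = 0.971). Fcgr3 was at 902 and 846 CPM in cKO and 855 and 818 CPM in Control, which overlap, with a log2 fold change of 0.06 (SE 0.11, edgeR adjusted p = 0.916).
Fcgr4 was at 20.9 and 19.7 CPM in cKO and at 14.5 and 20.997 CPM in Control. Only Control replicate 1 was low. The log2 fold change was 0.21 (SE 0.16, edgeR adjusted p = 0.778), and it was -0.05 without Control replicate 1 and 0.49 without Control replicate 2, so 1 library sets its sign.
The inhibitory receptor Fcgr2b was at 259.5 and 249.9 CPM in cKO and at 235 and 222 CPM in Control, 2 groups that do not overlap. Such a gap is common here: 39.9% of the tested genes had groups that do not overlap, 20.1% with cKO higher and 19.8% with cKO lower. Its log2 fold change was 0.16 (SE 0.08, edgeR adjusted p = 0.671), 0.25 in cells of neither microglial state (adjusted p = 0.756), and 0.06 in cells without a UMI of the heat-shock genes Hspa1a, Hspa1b and Dnajb1, of which there were 32.99% and 18.1% in the cKO libraries and 36.5% and 42.2% in the Control libraries.
The chain Fcer1g was at 2278 and 1929 CPM in cKO and 2334 and 2455 CPM in Control, so both cKO libraries were lower, and cKO replicate 2 lay furthest down. Its log2 fold change was -0.19 (SE 0.14, edgeR adjusted p = 0.774), -0.07 without cKO replicate 2, the library with the other run code, and -0.31 without cKO replicate 1 (edgeR adjusted p = 0.241). With scaling by total UMIs and no TMM factor, all 5 members had groups that do not overlap, as had 44.1% of all tested genes, the median of all genes moved to 0.09 on the log2 scale, and again no member passed (adjusted p of 0.425 to 0.790, with 28 genes called, 0.208%). Without Control replicate 1, the log2 fold changes were -0.02 for Fcgr1, 0.09 for Fcgr3, 0.20 for Fcgr2b and -0.23 for Fcer1g, none past the threshold.
Detection at 2000 UMIs differed by 4.87 percentage points for Fcgr2b, with 38.6% ± 0.420 of cells in cKO libraries against 33.7% ± 1.52 in Control libraries (SD, n = 2 per group; two-sided exact permutation p = 0.333, the smallest that 2 against 2 libraries can give). It differed by 2.78 points for Fcgr3, with the same p, and by 1.66 points for Fcgr1 (exact p = 0.333). Without Control replicate 1 the difference was 5.94 points for Fcgr2b, 3.69 points for Fcgr3 and 0.838 points for Fcgr1. If all 2000 UMIs of a cell were free RNA, Fcgr2b would be detected in 33.1% and 32.1% of cKO cells and 28.9% and 26.6% of Control cells. This background lay in the same direction, and its part in the detection difference was not tested.

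Cells with an active interferon response carried more of 2 activating receptors. A cell was called interferon-high when, at 2000 UMIs, at least 3 of 12 interferon genes were detected, and 5.36% and 5.69% of cKO and 4.65% and 4.79% of Control microglia-like cells were. In a joint edgeR fit over 16 sums (4 libraries by 4 state classes, with library as a block), 372 of 5873 genes passed (6.33%; 299 higher, or 5.09%, and 73 lower), and of the members Fcgr1 and Fcgr4 did, both higher. The 16 sums come from the same 4 libraries. Isg15, itself in the list, was 735 CPM in cells with the interferon state only and 25.8 CPM in cells of neither state, a difference that the definition of the state sets.
Fcgr1, the receptor of highest affinity, was at 744 and 801 CPM in interferon-only cells of the cKO libraries and at 893 and 709.8 CPM in those of Control libraries. In cells of neither state it was at 384 and 349 CPM in cKO and 359.8 and 390.0 CPM in Control. Every interferon-only value lay above every value of the neither cells, and the share of all tested genes with such a gap was not counted. The log2 fold change was 1.08 (SE 0.07, edgeR adjusted p = 1.92e-21).
Fcgr4, the rarest member, was at 37.0 and 62.2 CPM in interferon-only cells of cKO libraries and at 38.8 and 34.6 CPM in those of Control libraries, against 16.2 and 14.98 CPM and 10.4 and 17.5 CPM in cells of neither state. These groups do not overlap either, and here too the share of all tested genes with such a gap was not counted. Few UMIs stand behind each Fcgr4 value (10 and 16 in the interferon-only cells of cKO replicates 1 and 2). The log2 fold change was 1.55 (SE 0.24, edgeR adjusted p = 5.70e-07). Without Control replicate 1 it was 1.38 (adjusted p = 1.90e-04) and that of Fcgr1 1.05 (adjusted p = 2.85e-20).
The other 3 members did not pass. Fcgr3 had a log2 fold change of -0.04 (SE 0.07, edgeR adjusted p = 0.884), Fcgr2b of 0.11 (SE 0.10, adjusted p = 0.700) and Fcer1g of -0.02 (SE 0.05, adjusted p = 0.920). Without Control replicate 1 they were at -0.06, 0.16 and -0.03, none past the threshold. When the state was called from 12 genes induced chiefly by interferon-gamma, such as Gbp2 and Iigp1, Fcgr1 was at 0.60 (adjusted p = 4.94e-11) and Fcgr4 at 0.96 (adjusted p = 0.00747), both past the threshold. Scaling by total UMIs left the estimates of Fcgr1 and Fcgr4 within 0.02 of these for the main interferon list.
Levels were also read by the number of interferon genes detected. Fcgr1 averaged 349 ± 12.7 CPM in cells with 0 of the 12 genes and 1230.5 ± 175 CPM in cells with 6 or more (SD over the 4 libraries, at 2000 UMIs), a fold of 2.80 and 4.00 in cKO libraries and of 4.09 and 3.28 in Control libraries. Fcgr4 averaged 14.3 ± 3.06 CPM and 116 ± 49.0 CPM at these ends. Fcgr3 was at 849 and 759 CPM, Fcgr2b at 232 and 268 CPM and Fcer1g at 2179 and 2238 CPM. Between the ends the rise was not even. Fcgr1 averaged 539 CPM at 3 genes and 533 CPM at 4, and Fcgr4 37.1 CPM at 4 genes and 23.2 CPM at 5. Cells with 6 or more genes numbered 155, of which Control replicate 2 gave 14, and the bin with 5 genes held 13 in its smallest library.

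**Figure D2:**
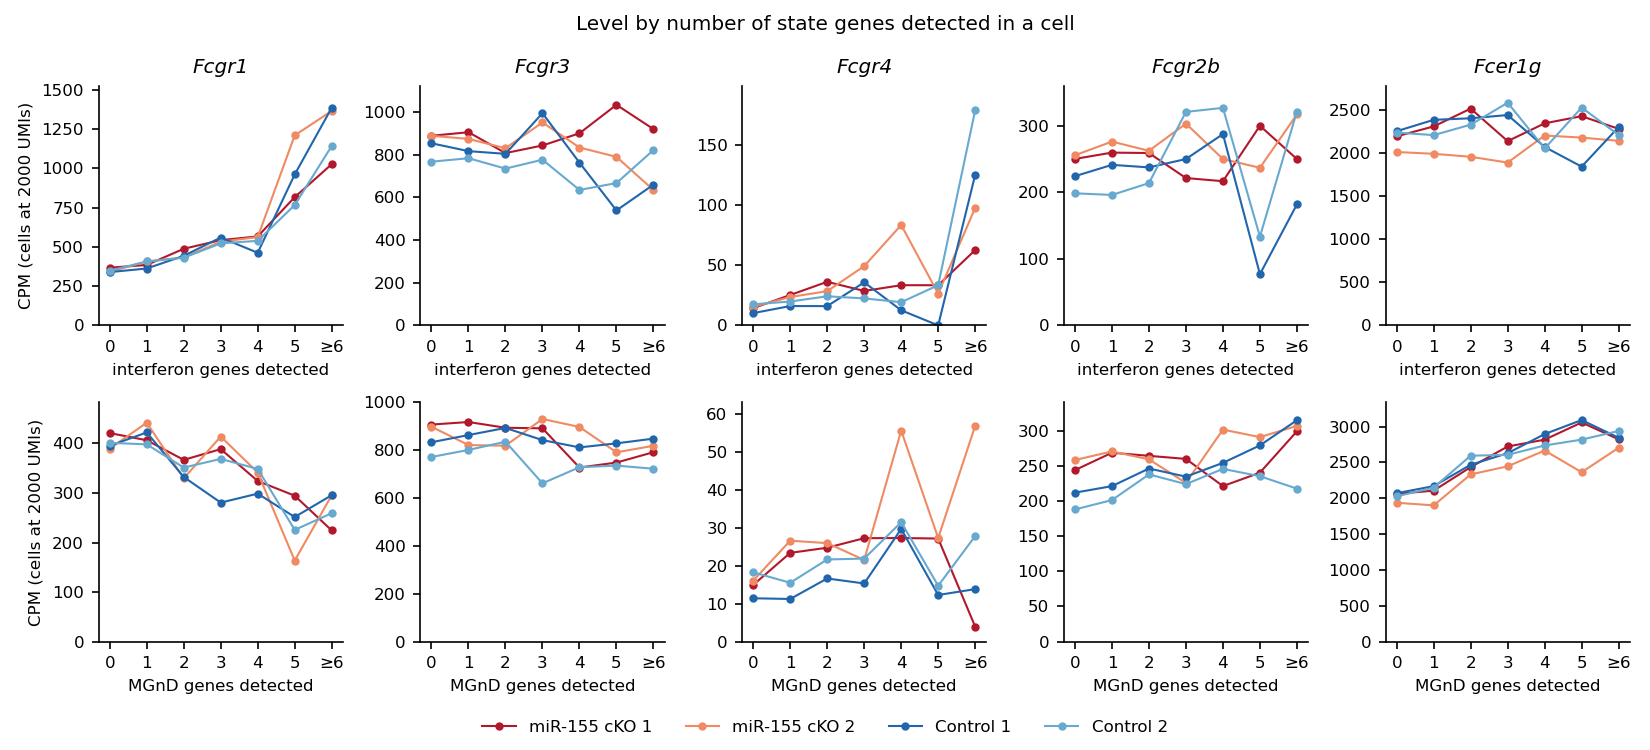
CPM of each member (linear axis from 0, cells thinned to 2000 UMIs) by the number of interferon genes (top row) and MGnD genes (bottom row) detected in a cell, 0 to 6 or more. Each line is a library. Fcgr1 and Fcgr4 are higher at 6 or more interferon genes than at 0 in all 4 libraries, and Fcer1g is higher and Fcgr1 lower at 6 or more MGnD genes than at 0. The Fcgr4 lines rest on few UMIs and cross.

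In MGnD-high cells (at least 3 of 12 MGnD genes detected; 17.9% and 10.0% of cKO and 22.5% and 22.3% of Control microglia-like cells) the chain Fcer1g, Fcgr4 and Fcgr2b were higher and Fcgr1 lower with TMM scaling, and Fcer1g, Fcgr4 and Fcgr1 held with total-UMI scaling too. In the same edgeR fit, 3021 of 5873 genes passed (51.4%; 1506 higher, or 25.6%, and 1515 lower, or 25.8%), and all 5 members passed, which is read against that share. With total UMIs and no TMM factor, 4052 passed (69%; 862 higher, or 14.7%, and 3190 lower, or 54.3%), and the median of all genes was -0.31 on the log2 scale, against -0.04 with TMM. Clec7a, an MGnD gene, was 904 CPM in MGnD-only cells and 56.5 CPM in cells of neither state, and P2ry12, a homeostatic gene, was 1319.9 CPM in MGnD-only cells and 2682 CPM in cells of neither state. Cells with more MGnD genes were deeper before thinning. Median depth at 0 MGnD genes was 5735 and 7116 UMIs in cKO and 5706.5 and 5960 UMIs in Control libraries. At 6 or more it was 10816 and 14321 UMIs in cKO and 11560 and 13584.5 UMIs in Control libraries. Thinning equalised the UMIs counted per cell, and the part of this depth difference in the MGnD estimates was not tested.
Fcer1g was at 3318 and 2890.1 CPM in MGnD-only cells of cKO and at 3309 and 3370 CPM in those of Control, against 2040 and 1839 CPM and 2071 and 2143 CPM in cells of neither state. All MGnD-only values were above all neither values, a gap whose share over all tested genes was not counted. The log2 fold change was 0.61 (SE 0.05, edgeR adjusted p = 4.14e-17), and 0.38 with total UMIs (adjusted p = 1.20e-13).
Fcgr4 had a log2 fold change of 0.76 (SE 0.19, edgeR adjusted p = 5.67e-04), and 0.50 with total UMIs (adjusted p = 0.0163). Its MGnD-only level was 26.8 ± 9.24 CPM, against 14.8 ± 3.11 CPM in cells of neither state (SD, n = 4 each).
Fcgr2b had a log2 fold change of 0.38 (SE 0.08, edgeR adjusted p = 1.66e-05), with 305 ± 20.8 CPM in MGnD-only cells and 223 ± 23.8 CPM in cells of neither state (SD, n = 4 each). The call ended at 0.11 with total UMIs (adjusted p = 0.153) and in DESeq2 at 0.24 (adjusted p = 0.176).
Fcgr1 was lower, at -0.18 (SE 0.07, edgeR adjusted p = 0.0215), and at -0.43 with total UMIs (adjusted p = 1.76e-08). Its call did not hold without Control replicate 1 (adjusted p = 0.218), without cKO replicate 1 (adjusted p = 0.0574) or in DESeq2 (adjusted p = 0.116).
Fcgr3 passed at 0.16 (SE 0.06, edgeR adjusted p = 0.0157) but turned to -0.10 with total UMIs (adjusted p = 0.0814) and was at 0.11 without Control replicate 1 (adjusted p = 0.244), so no direction is given for it.
By number of MGnD genes, Fcer1g averaged 2024 ± 60.7 CPM at 0 genes and 2828 ± 96.7 CPM at 6 or more (SD over 4 libraries, total-UMI CPM), and was higher in 4 of 4 libraries. Fcgr1 averaged 402 ± 13.6 CPM at 0 genes and 269 ± 34.1 CPM at 6 or more, and was lower in 4 of 4. Fcgr2b averaged 226 and 285 CPM at these ends. Fcgr4 averaged 15.2 ± 2.85 CPM at 0 genes and 25.6 ± 23.0 CPM at 6 or more, with a fold of 0.264 and 3.54 in cKO libraries and of 1.21 and 1.52 in Control libraries. At 6 or more genes these folds rest on 1 and 5 Fcgr4 UMIs in cKO libraries and 5 and 6 in Control libraries, so no direction is read from them. Fcgr3 averaged 852 and 795 CPM and was lower in 3 of 4 libraries. Without Control replicate 1, the state estimates of Fcer1g (0.59), Fcgr4 (0.74) and Fcgr2b (0.33) still passed with TMM scaling (edgeR adjusted p of 0.00564 or below).

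**Figure D3:**
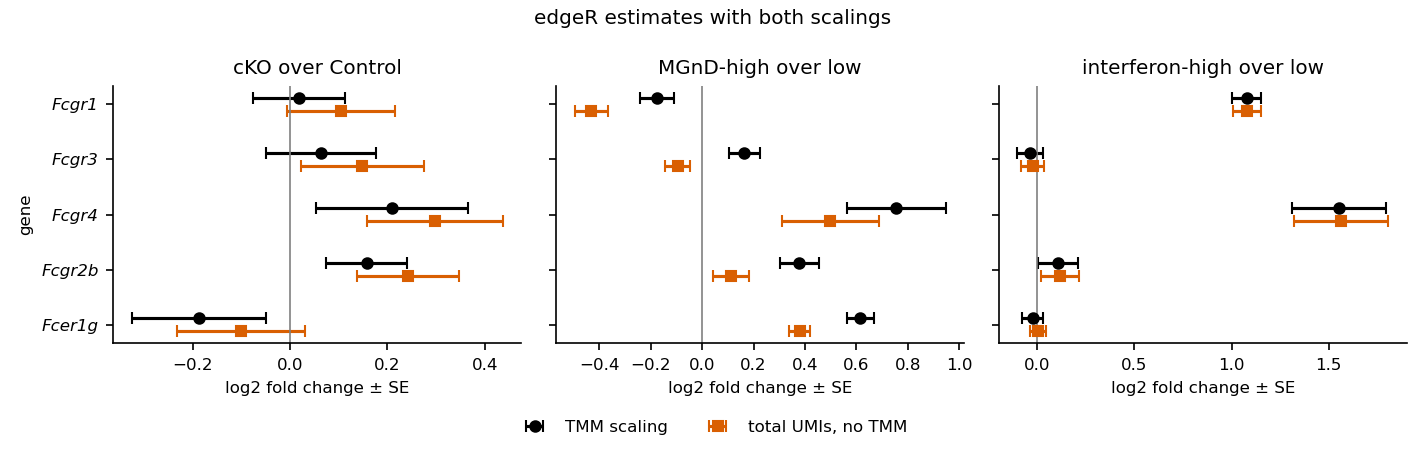
edgeR log2 fold changes (points) ± SE (whiskers) of the members for cKO over Control, MGnD-high over MGnD-low and interferon-high over interferon-low. Circles use TMM scaling and squares total UMIs. The interferon estimates coincide, while every MGnD estimate lies further left with total UMIs and that of Fcgr3 changes sign.

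No change of a member's state difference with genotype passed the threshold: the genotype by MGnD and genotype by interferon interactions gave adjusted p of 0.992 or above for all 5 in edgeR, with 1 and 4 genes called (0.017% and 0.0681%). The genotype by MGnD interaction of Fcgr2b was -0.26 (SE 0.14, edgeR adjusted p = 0.998), and the SEs for Fcgr4 were 0.35 by MGnD state and 0.45 by interferon state. In the MGnD by interferon interaction, 38 genes passed (0.647%), and Fcgr2b, at -0.70 (SE 0.21, edgeR adjusted p = 0.136), did not. In cells of both states, of which each library had 21 to 53, Fcgr2b was at 188 and 136 CPM in cKO and 219 and 397 CPM in Control.

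The balance of activating and inhibitory receptors was expressed as UMIs of Fcgr1, Fcgr3 and Fcgr4 per UMI of Fcgr2b. It was 5.04 and 4.93 in the cKO libraries and 5.24 and 5.50 in the Control libraries, so both cKO values were below both Control values. The log2 difference, cKO minus Control, was -0.11 (exact two-sided permutation p = 0.333, the smallest possible with 2 libraries against 2), and -0.14 without Control replicate 1.
In MGnD-high cells the balance was 4.49 and 4.52 in cKO and 4.28 and 4.52 in Control, against 5.32 and 4.96 in cKO and 5.75 and 6.12 in Control in MGnD-low cells of the same libraries. It was lower in 4 of 4 libraries, with a mean log2 difference of -0.31 ± 0.15 (SD, n = 4; exact two-sided sign-flip permutation p = 0.125, the smallest that 4 libraries allow). The difference by library was -0.25 and -0.14 in cKO and -0.43 and -0.44 in Control, which do not overlap, and with cells thinned to 1000 UMIs it was -0.50 and -0.52 in cKO and -0.43 and -0.35 in Control. At 1000 UMIs fewer cells met the 3-gene rule, and the gap between genotypes was not tested. Without Control replicate 1 the mean was -0.27. A ratio of 2 UMI sums does not depend on the scaling.
In interferon-high cells the balance was 6.96 and 6.04 in cKO and 7.18 and 4.70 in Control, against 5.08 and 4.84 in cKO and 5.28 and 5.79 in Control in interferon-low cells. Values were higher in 3 libraries and Control replicate 2 was lower, with a mean log2 difference of 0.23 ± 0.36 (SD, n = 4; exact permutation p = 0.25). With Fcgr3 alone over Fcgr2b the mean was -0.21, of the other sign. With all 3 receptors leaving out Control replicate 1 gave a mean of 0.16, and leaving out Control replicate 2, the library that was lower, gave 0.41 (exact permutation p = 0.25). With cells thinned to 1000 UMIs it was 0.67 ± 0.18 and higher in 4 of 4 libraries (exact permutation p = 0.125, the smallest possible). The plot of the balance shows these pairs.

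**Figure D4:**
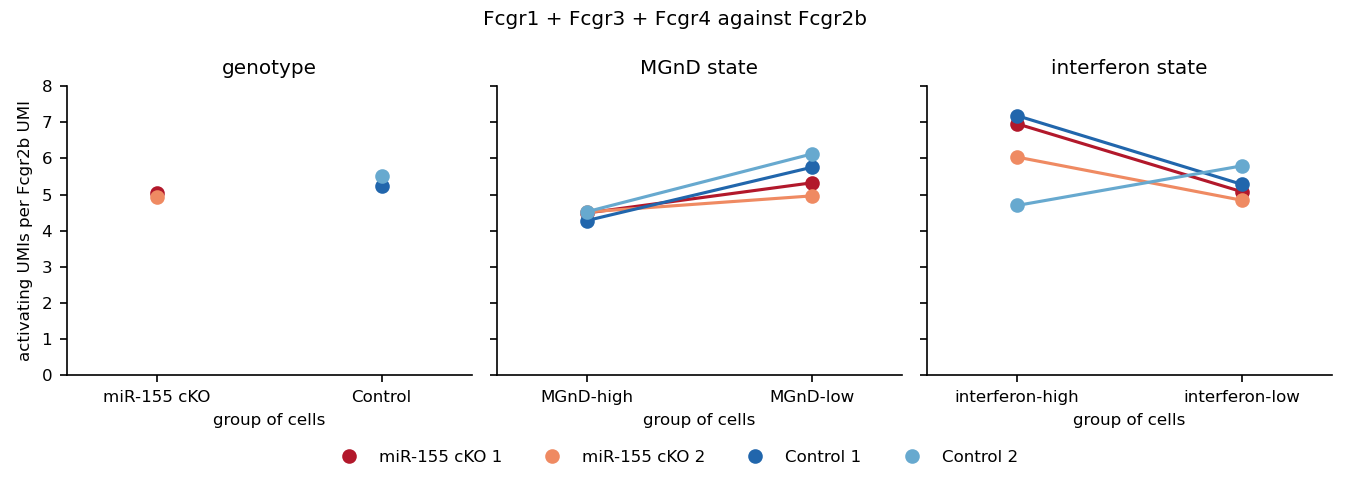
Activating UMIs (Fcgr1, Fcgr3 and Fcgr4 summed) per Fcgr2b UMI, linear axis from 0, by library. Left, genotype; middle, MGnD-high and MGnD-low cells; right, interferon-high and interferon-low cells, with lines joining a library. All 4 lines run upward from MGnD-high to MGnD-low, and 3 of 4 run downward from interferon-high to interferon-low.

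Within cells, the members were detected together about as often as the product of their shares. Over the 10 pairs of members and 4 libraries, the observed share of cells with both divided by the product of their shares was 0.822 to 1.24, and the value of 0.822 (Fcgr3 with Fcgr4 in cKO replicate 2) rests on few Fcgr4 cells. Of thinned cells, 43.0% and 44.0% in cKO and 42.6% and 40.3% in Control had exactly 2 of the 4 ligand-binding receptors detected.

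Other cells of the sort differed in the receptors they carried, as a description since clusters are not tested against each other. Pooled over libraries, the 52 monocyte-like cells had 118 CPM of Fcgr1 (95% exact Poisson interval 90.2 to 152, counting error only), against 374 CPM in microglia-like cells, and 228 CPM of Fcgr3 (189 to 273) against 859 CPM. Their Fcgr4 was 63.8 CPM (43.9 to 89.6), against 18.7 CPM in microglia-like cells. Fcgr4 is known in mice as a receptor of monocytes and neutrophils. Monocyte-like cells numbered 18 and 4 in the cKO libraries and 25 and 5 in the Control libraries, and the spread over libraries is wide (Fcgr4 45.4 ± 36.7 CPM, SD, n = 4).
The 32 BAM-like cells had 410.2 CPM of Fcgr1 (355 to 472) and 316 CPM of Fcgr2b (268 to 371), against 374 and 243 CPM in microglia-like cells. They also held the homeostatic microglial gene P2ry12 at 1697 ± 495 CPM, against 2332 ± 271 CPM in microglia-like cells (SD, n = 4 libraries each), and the part of microglial RNA in these values was not tested. Fcer1g was at 2079 CPM in monocyte-like, 2045 CPM in BAM-like and 2255 CPM in microglia-like cells.

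**Figure D5:**
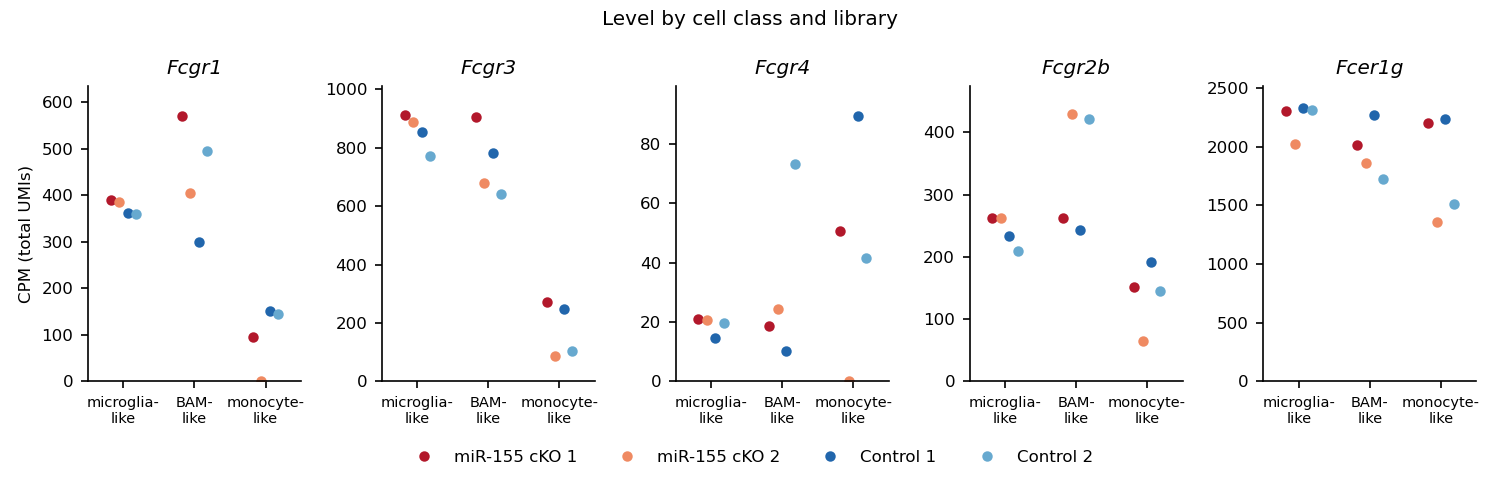
CPM of each member by cell class and library (linear axis from 0, total-UMI CPM). Points are libraries. Monocyte-like points of Fcgr1 and Fcgr3 lie below the microglia-like points in all 4 libraries, whereas the few monocyte-like and BAM-like cells give widely spread Fcgr4 values.

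Among microglia-like clusters, the one led by Cxcl10 and Ifit3 had 658 ± 37.6 CPM of Fcgr1 and 41.1 ± 6.86 CPM of Fcgr4 (SD, n = 4), and the one led by Igf1 and Cst7 had 2851 ± 114 CPM of Fcer1g and 277 ± 18.3 CPM of Fcgr1. A cluster of 221 cycling cells led by Top2a and Mki67 had 519 ± 53.1 CPM of Fcgr3. A cluster of 259 cells led by Mt3 and Chchd10 had 135 ± 13.7 CPM of Fcgr2b and 3272 ± 149 CPM of Fcer1g.

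The wider pathway was read from 66 genes of Fc receptor signalling, in 4 groups: other receptors and partners, kinases, adaptors and effectors, and brakes. By genotype, 53 were tested and 0 passed in either direction, with a median log2 fold change of 0.06 beside 0.01 for all genes. Those with the smallest p were Hcst, an adaptor (-0.36, SE 0.10, edgeR adjusted p = 0.536), the inhibitory receptor Cd300a (0.27, SE 0.08, adjusted p = 0.536) and the kinase Prkcd (0.27, SE 0.08, adjusted p = 0.538). Syk was at 0.25 (adjusted p = 0.591), the inhibitory receptor Lilrb4a at -0.58 (adjusted p = 0.595) and Tyrobp, the DAP12 chain, at -0.43 (adjusted p = 0.599).
In the MGnD fit 41 were tested. With TMM 9 were higher and 21 lower, where 25.6% and 25.8% of all tested genes were. With total UMIs 6 were higher and 29 lower, where 14.7% and 54.3% of all tested genes were. The medians were -0.22 and -0.49, beside -0.04 and -0.31 for all genes. The higher ones included Tyrobp at 1.52 (SE 0.06), with 8540.2 CPM in MGnD-only cells and 2801 CPM in cells of neither state, Lilrb4a at 3.80 (SE 0.16) and Hcst at 1.59 (SE 0.11). The lower ones included Cd300a at -0.92 (SE 0.09), the kinase Lyn at -0.53 (SE 0.06) and Pik3r1, a regulatory subunit of PI3 kinase, at -0.59 (SE 0.07). All 6 passed in edgeR, with adjusted p of 6.15e-11 or below, and kept their direction with total UMIs. Of the kinases, 4 of 5 tested were lower and 1 higher with either scaling, where 25.8% of all tested genes were lower with TMM and 54.3% with total UMIs.
In the interferon fit 3 of 41 were higher and 2 lower, where 5.09% of all tested genes were higher and 6.33% passed in either direction. The median was -0.03 beside -0.03 for all genes. Among the higher ones, Pik3ap1, an adaptor of PI3 kinase, was at 1.00 (SE 0.12, edgeR adjusted p = 7.96e-11) and Lyn at 0.41 (SE 0.07, adjusted p = 1.60e-06). Fcrls was at -0.20 (SE 0.06, adjusted p = 0.0198) and the ubiquitin ligase Cbl at -0.38 (SE 0.12, adjusted p = 0.0412). Tyrobp, at -0.13 (adjusted p = 0.230), did not pass.

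The genes whose pattern over the 16 sums was most like each member were found by Pearson correlation of log2 CPM centred on the library, over 3999 genes. The sums share libraries, depth and the state lists, so these are descriptions. Fcgr1 was most like Ccl12 (r = 0.98), Etnk1 (0.97) and Herc6 (0.96), and Fcgr4 most like H2-Q7 (0.94), Samd9l (0.93) and Ifitm3 (0.93). Fcer1g was most like Fau, Serf2 and Lyz2 (each 0.99). Fcgr3 was most like Sdhb (0.92), Ptpn18 (0.92) and Tec (0.91), and Fcgr2b like Hnrnpa3 (0.91), Atp5md (0.88) and Hspa4 (0.87). Between the members themselves, the correlation was 0.66 for Fcgr1 with Fcgr4 and -0.35 for Fcgr1 with Fcgr2b.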

How the data were processed

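What the authors deposited are UMI counts, raw and unnormalized, for each gene in each barcode, empty droplets included. The submitters' processing notes name Cell Ranger 4.0.0 and mm10. The barcodes and feature names are text labels per the file headers. No file was left out.

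Cells were barcodes with at least 1000 UMIs, 500 genes and at most 10% mitochondrial UMIs. They were clustered in scanpy 1.11.5 without the 5 members (2000 variable genes, 30 components, 15 neighbours, leidenalg 0.10.2, resolution 1) and named from fixed markers. Clusters with markers of another class were split once more at resolution 0.6. Scrublet's own threshold called 2, 0, 0 and 0 doublets and so has not worked; doublets were kept, and removal at 0.8% per 1000 cells was an alternative. UMIs were summed per library, or per library and state after thinning to 2000 UMIs, and tested in edgeR 4.0.16 (R 4.3.3; TMM, filterByExpr, quasi-likelihood F test, two-sided, Benjamini-Hochberg over all tested genes, threshold 0.05). DESeq2 1.42.0 was an alternative, and other tests were exact permutations. With 2 libraries a group the genotype fit has 2 residual degrees of freedom, beside 6.91 prior ones for the dispersion, drawn from other genes. The state fit has 10 residual and 64.1 prior ones, over sums from the same 4 libraries. Scripts were tested on simulated data. The members, gene lists and motifs were chosen with earlier results of these data known. Named genes were the members, per fit the 3 pathway genes of smallest p in each direction with an average log2 CPM of at least 4, the 3 most alike genes of each member, and Clec7a, P2ry12, Isg15 and Tyrobp; 1 gene that the rule names is not reported here. Positions and 3′ UTRs come from GENCODE M21, in which 128 feature identifiers were missing. Intervals cover counting error only.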

Additional observations from a re-analysis of the deposited data

How the results depend on the processing

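Over the results and alternatives tried, 253 values were unchanged, 15 changed sign, 17 lost a call and 16 counts of genes moved. Unchanged meant the same direction and side of the threshold, a gene count near the main one, or direction alone for detection and balance. Members by genotype passed in no setting, so their unchanged values are calls that stayed absent. The cause of the changes was not tested unless the alternative itself shows it. The number of genes called by genotype, 4, became 0 with all barcodes, 18 thinned to 2000 UMIs, 11 in cells of neither state, 8 without heat-shock UMIs, 371 with no filter on low counts, 16 in DESeq2 and 28 with total UMIs, and 11 to 421 when a library was left out, the 421 without cKO replicate 1. The MGnD count of 3021 became 1329 at 1000 UMIs, where fewer genes were tested, and 5710 with all UMIs; the interferon count of 372 became 227 and 668 in the same settings. Leaving out a library gave 2542 to 3341 and 262 to 323.

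The correlation of deviations from the group mean between same-numbered libraries was -0.07. With 2 libraries per group it is by construction the same value for both numbers, so it cannot show whether the numbers pair the libraries. With a replicate block, 13 genes were called by genotype and no member.

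By genotype, Fcgr1 turned to -0.012 thinned to 2000 UMIs and -0.020 without heat-shock UMIs, and ranged from -0.021 to 0.059 when a library was left out. Fcgr4 ranged from -0.049 to 0.49. The thinned Fcer1g detection difference turned to 0.027 percentage points unthinned.

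In the MGnD state, Fcgr1 lost its call with all UMIs (-0.13), the interferon-gamma-type list (-0.069), no library block (-0.18) and DESeq2 (-0.20), and ranged from -0.22 to -0.12 with a library left out. Fcgr3 lost it at 1000 UMIs (0.032), with at least 4 genes (0.13), the interferon-gamma-type list (0.13), no library block (0.16), no filter (0.077) and DESeq2 (0.14), turned to -0.10 with total UMIs, and ranged from 0.11 to 0.23 with a library left out. Fcgr2b lost it with total UMIs (0.11) and DESeq2 (0.24).

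In the interferon state, Fcgr2b, never past the threshold, turned to -0.076 at 1000 UMIs, -0.010 with at least 4 genes and -0.0094 with the interferon-gamma-type list, and ranged from -0.026 to 0.18 with a library left out. Fcer1g turned to 0.015 with all UMIs, 0.029 with at least 2 genes and 0.0027 with total UMIs. The interferon balance turned to -0.21 with Fcgr3 alone. Fcgr4 was not tested at 1000 UMIs because it fell below the filter. The total-UMI and heat-shock alternatives were chosen after seeing the data. Free RNA and 2 libraries per group limit all genotype results.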
